A study of Arabidopsis thaliana with 12 samples.

Results

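The plasma membrane intrinsic proteins (PIPs) are the water channels of the plant cell surface, and transcripts of 10 of their genes were followed in whole Arabidopsis seedlings given Rose Bengal (RB), a dye that makes singlet oxygen in the light. The genes were listed by identifier: PIP1;1 to PIP1;5, PIP2;1 to PIP2;4 and PIP2;7, which are 10 of the 13307 genes with deposited counts. The list was made with earlier results of these data known. Wild type Col-0 seedlings, 2 weeks old, were held in water, then moved for 2 h at 30 µE of light to RB at 0, 10, 100 or 400 µM, and 3 libraries were made per dose, so that the 0 µM seedlings differ from the others in the dye alone. The study's own list of data sets names the herbicide DCMU for this series, while the labels of every sample name RB, and the labels were followed. For RNA extraction, the study's methods describe 3 biological replicates per treatment, each a pool of whole seedlings. The labels and the methods' section on sequencing do not repeat this for the libraries, and the p-values measure the spread among them.

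PIP proteins belong to the major intrinsic proteins, pores that sit in membranes as tetramers and let water pass along the osmotic gradient. They form a PIP1 and a PIP2 subgroup. PIP2 proteins are strong water channels on their own, whereas PIP1 proteins reach the plasma membrane with the help of PIP2 partners, as shown first in maize. Some members also pass hydrogen peroxide or carbon dioxide, and in Arabidopsis PIPs carry a large part of the water that roots take up and leaves release. Their number at the surface is set by transcription, by vesicle traffic, by phosphorylation and by degradation.

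Positions and sequences were read by gene identifier from TAIR10.1, the RefSeq assembly, where none of the 10 genes overlaps another annotated gene and each has 4 exons in the model used. The PIP1 genes are PIP1;1 (PIP1A in RefSeq, AT3G61430, chr3:22733243-22735394, plus strand), PIP1;2 (PIP1B in RefSeq, AT2G45960, chr2:18910081-18911982, plus strand), PIP1;3 (PIP1C in RefSeq, AT1G01620, chr1:225665-227543, minus strand), PIP1;4 (AT4G00430, chr4:185285-187680, minus strand) and PIP1;5 (AT4G23400, chr4:12220641-12222468, plus strand). The PIP2 genes are PIP2;1 (PIP2A in RefSeq, AT3G53420, chr3:19803473-19805730, minus strand), PIP2;2 (PIP2B in RefSeq, AT2G37170), PIP2;3 (RD28 in RefSeq, AT2G37180), PIP2;4 (AT5G60660, chr5:24375368-24377206, minus strand) and PIP2;7 (PIP3 in RefSeq, AT4G35100, chr4:16708361-16710407, plus strand). RefSeq's symbol is used for each of the 10 genes from here on, and for PIP1;4, PIP1;5 and PIP2;4 it is the same name. Coding sequences were 79.5 to 87.6% identical between PIP1 genes, 71.3 to 94.8% between PIP2 genes and 63.4 to 68.7% across the subgroups. The closest pair, PIP2B and RD28, lies head to head on chromosome 2 at chr2:15613368-15615022 (minus strand) and chr2:15617635-15619155 (plus strand), with 2612 bases between them. Their coding sequences were 94.8% identical and their 3′ untranslated regions 52.5% identical. The last 60 coding bases of both are shown because the libraries hold 3′ ends and because the values of these neighbours are compared below. Capitals mark the 8 bases at which they differ, at chr2:15613624-15613683 (minus strand) for PIP2B and chr2:15618878-15618937 (plus strand) for RD28, and the last bases of each line are the stop codon:
PIP2B: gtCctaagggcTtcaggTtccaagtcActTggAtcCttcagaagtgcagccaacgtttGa
RD28: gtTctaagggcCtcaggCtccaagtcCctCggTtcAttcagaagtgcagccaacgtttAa
How the authors' counting treated a read that matched both genes is not given in the sources used here, so an exchange of reads between them, of unknown size, cannot be told apart from their own signal.

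Levels are in CPM, the reads of a gene scaled to a common library total, with TMM factors that set the totals level for most genes. A MARS-seq library reads 1 short stretch at the 3′ end of each transcript, so CPM needs no division by gene length and levels of different genes were compared on this per-transcript-end scale. Library totals ran from 1499791 to 3608636 reads, so that a single read stood for 0.615 CPM in the shallowest library and for 0.262 CPM in the deepest one. The 10 members had 12 reads (PIP3) to 3542 reads (PIP1B) per library, and all 10 passed the authors' minimum of 5 reads in at least 1 sample. Singlet oxygen markers behaved differently from the aquaporins. All 4 listed (BAP1, FLOT3, CML40, GER5) were called higher at 400 µM than at 0 µM by edgeR, as were 9.11% of all genes. CML40 had no read in the 0 µM libraries and 6.3 ± 1.6 CPM at 400 µM (SD, n = 3). Within dose groups, 1 component held 33.4% of the variance between replicates. It had its high scores in replicate 1 of the 10 µM dose, in replicate 1 of 100 µM and in replicate 2 of 400 µM, and fits without these 3 libraries were among the alternatives.

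The summed level of the 10 genes was lower at each RB dose than at 0 µM, with 6 of the 10 genes called lower at 400 µM and none called between 400 and 100 µM. The sum was 4652 ± 374 CPM at 0 µM, 3477 ± 110 CPM at 10 µM, 3155 ± 149 CPM at 100 µM and, at the highest dose, 2641 ± 146 CPM (SD, n = 3 each). The libraries of each RB dose lay below those of 0 µM, and the 400 µM sum was 56.8% of the untreated one, against 67.8% at 100 µM and 74.8% at 10 µM. In whole seedlings, fewer cells of a type and less RNA per cell cannot be told apart. PIP1 genes held 71.4 ± 1.2% of the summed level at 400 µM and 68.4 ± 1.7% at 0 µM (SD, n = 3).

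**Figure D1:**
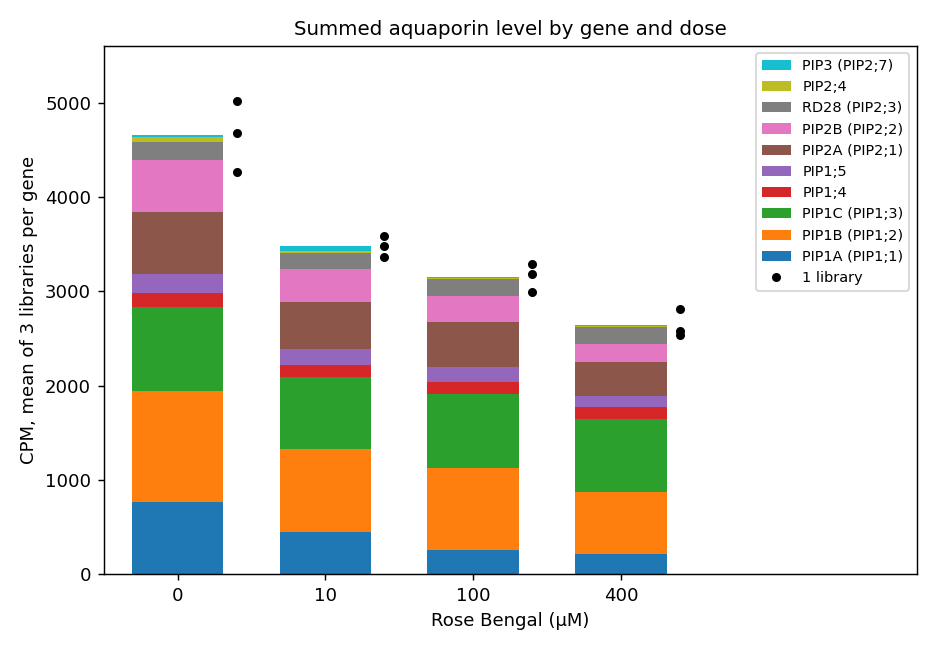
Mean CPM of each of the 10 aquaporin genes, stacked, at the 4 RB doses (µM), with black points for the sum in each of the 3 libraries of a dose. The stack reaches 2641 CPM at 400 µM, against 4652 CPM at 0 µM. PIP1A and PIP2B take a thinner band at 400 µM, with 211 and 182 CPM, than at 0 µM.

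Gene by gene, edgeR's quasi-likelihood test over all 13307 genes, with Benjamini-Hochberg adjusted p under 0.05, called 3 of 10 members lower at 10 µM than at 0 µM (PIP1A, PIP2B, PIP2;4), where 1.07% of all genes were called lower. At 100 µM, PIP1B and PIP2A joined them for 5 of 10, against 4.22% of all genes. At 400 µM, 6 of 10 were lower (the same 5 and PIP1;5), against 6.43% of all genes. With all libraries in the fit, no member was called higher at any dose by edgeR or by DESeq2, while 2.66%, 7.32% and 9.11% of all genes were called higher by edgeR at 10, 100 and 400 µM. At an unadjusted p under 0.05, PIP3 was higher at 10 µM, as were 8.82% of all genes, and 1 of its 3 libraries stood far above the others. DESeq2 called PIP1B lower at 10 µM too, for 4 of 10 there. Among the 5051 genes no less abundant than the scarcest member (mean 20.53 CPM), 2.1%, 7.21% and 10.8% were called lower at 10, 100 and 400 µM. The median log2 fold change of the members was −0.36, −0.45 and −0.85 at 10, 100 and 400 µM, while that of all genes was 0.02, −0.04 and −0.04.

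Without TMM, on library totals, the median of all genes shifted to −0.15 at both 100 and 400 µM, and the members' median relative to it was −0.42 and −0.81, as with TMM, since this rescaling moves all genes of a library alike. That scaling changed the share of higher genes among all calls to 46.5% at 400 µM and 49.4% at 100 µM, against 58.6% and 63.5% with TMM, and 8.89% and 6.28% of all genes were then called lower at these doses. On that scale 6 members were called at 100 µM, with PIP1;5 added, and 7 at 400 µM, with PIP1;4 added.

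**Figure D2:**
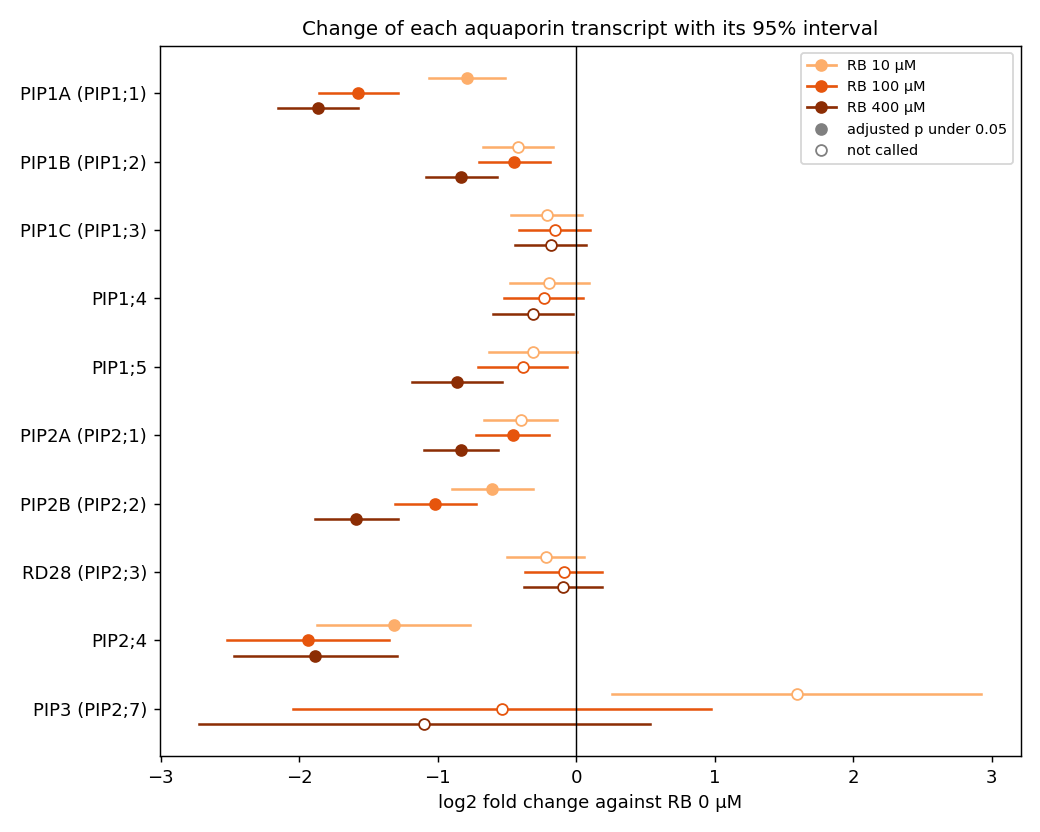
Log2 fold change of each of the 10 genes at 10, 100 and 400 µM RB against 0 µM, from the fit of all 12 libraries, with bars for the 95% interval and filled points for adjusted p under 0.05. PIP1A (−1.86 at 400 µM), PIP2B (−1.59) and PIP2;4 (−1.88) lie left of the other 7 genes at 400 µM, PIP1C and RD28 lie near 0, and PIP3 has the widest bars.

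Across the F test over the 4 doses, 7 of 10 members passed, against 14.6% of all genes. PIP1C, PIP1;4 and RD28 did not, with adjusted p of 0.544, 0.365 and 0.653 by edgeR. The members are described in 3 groups, with PIP3 after them.

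PIP1A, PIP2B and PIP2;4 had the largest decreases at 400 µM among the 10 genes and were also called lower at 10 µM by edgeR. PIP1A, a channel found in root and leaf, had 734, 651 and 921 CPM at 0 µM, 465, 424 and 447 CPM at 10 µM, 256, 256 and 263 CPM at 100 µM and 231, 208 and 195 CPM at 400 µM. No library of a higher dose reached the level of any library of a lower dose, at any of these steps. Its log2 fold changes against 0 µM were −0.79 ± 0.13, −1.57 ± 0.14 and −1.86 ± 0.14 (SE) at 10, 100 and 400 µM, with edgeR adjusted p of 0.000895, 9.52e-08 and 8.73e-09. With all libraries and TMM, PIP1A was the one member edgeR called between 100 and 10 µM, at −0.78 ± 0.13 with an edgeR adjusted p of 0.00204, where 1.5% of all genes were called lower. PIP2B was also called there on library totals (−0.58, adjusted p 0.0246) and by DESeq2 (−0.44, adjusted p 0.05 after rounding).

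PIP2B, which carries part of the water flow across root cells, had 621, 447 and 572 CPM at 0 µM, 348, 399 and 330 CPM at 10 µM, 264, 274 and 271 CPM at 100 µM and 171, 205 and 170 CPM at 400 µM. Here too the libraries of each dose lay entirely below those of the dose before it. The log2 fold changes were −0.60 ± 0.14, −1.02 ± 0.14 and −1.59 ± 0.14 (SE), with edgeR adjusted p of 0.0140, 3.37e-05 and 1.26e-07. The call at 10 µM was lost when replicate 1 or replicate 3 of 0 µM was left out, with edgeR adjusted p of 0.11 and 0.0795, and when replicate 1 or replicate 3 of 10 µM was, with 0.0669 and 0.0672.

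PIP2;4, a root channel that also passes hydrogen peroxide, was scarcer, with 59.4, 50.3 and 38.2 CPM at 0 µM, 16.6, 22.8 and 19.7 CPM at 10 µM, 13.6, 8.01 and 16.7 CPM at 100 µM and 10.5, 9.43 and 19.5 CPM at 400 µM. The untreated libraries stood above all 9 treated ones, and the 100 and 400 µM libraries overlapped. Its log2 fold changes were −1.32 ± 0.26, −1.94 ± 0.28 and −1.88 ± 0.28 (SE), with edgeR adjusted p of 0.00455, 6.45e-05 and 7.28e-05. It had 16 to 159 reads per library.

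**Figure D3:**
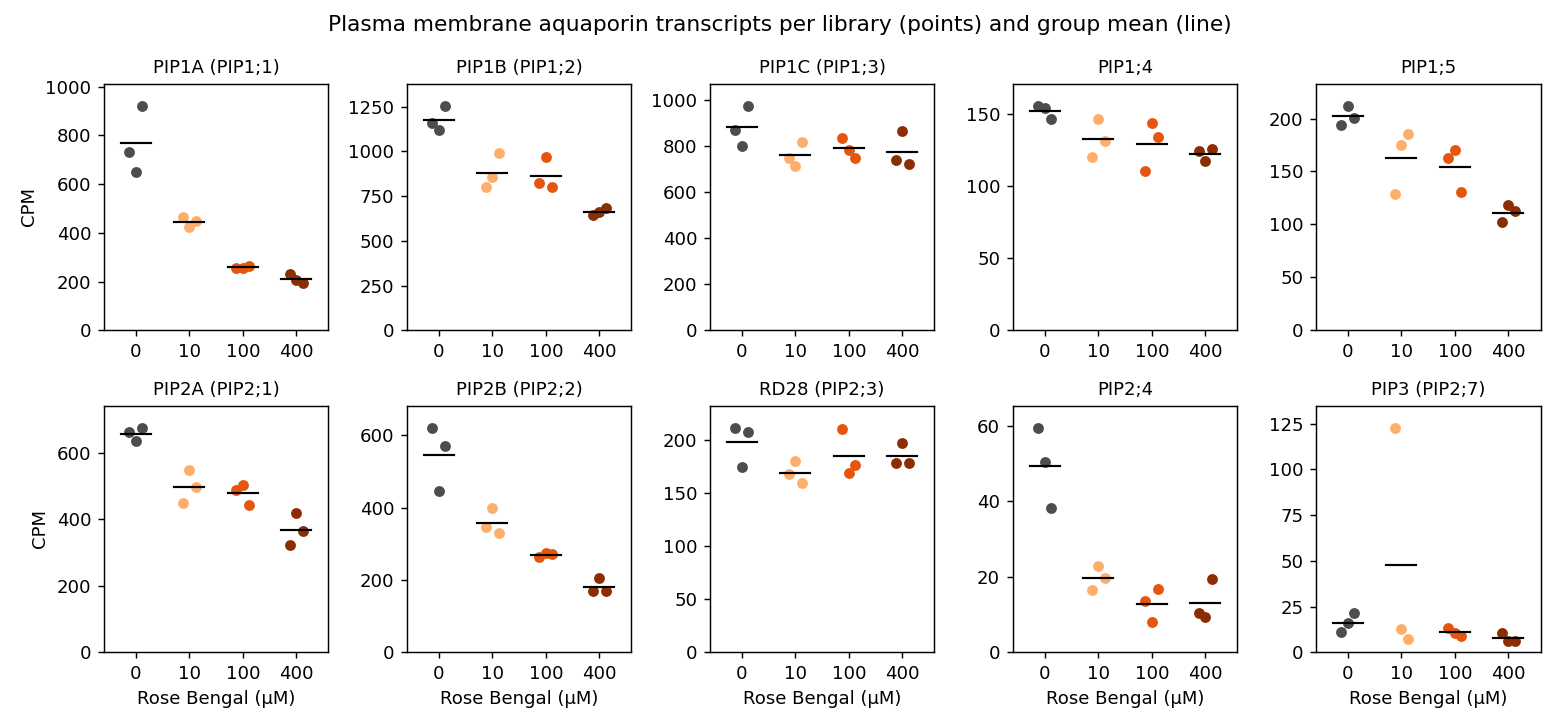
CPM of each of the 10 genes in all 12 libraries (points) and the mean of the 3 libraries (lines) at 0, 10, 100 and 400 µM RB, each panel on its own axis from 0. PIP1A and PIP2B step down at every dose, PIP1C and RD28 overlap at all doses, and PIP3 has 1 library at 123 CPM at 10 µM.

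PIP1B, PIP2A and PIP1;5 had smaller decreases, and their 400 µM libraries lay below those of 10 and 100 µM. Against 100 µM this held for 6.39% of all genes, and edgeR called none of these members between 400 and 100 µM. PIP1B, a water and carbon dioxide channel of leaves and the most abundant member at 0 µM, had 1161, 1121 and 1254 CPM at 0 µM, 800, 855 and 990 CPM at 10 µM, 821, 969 and 803 CPM at 100 µM and 643, 662 and 683 CPM at 400 µM. The 10 and 100 µM libraries overlapped, and those of 400 µM lay below them. Its log2 fold changes were −0.42 ± 0.12, −0.45 ± 0.12 and −0.83 ± 0.12 (SE), with edgeR adjusted p of 0.0656, 0.0194 and 6.38e-05. At 10 µM PIP1B was called by DESeq2, at −0.40 with an adjusted p of 0.0246, and by edgeR without replicate 3 of 10 µM, at −0.51 with an adjusted p of 0.0437.

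PIP2A is known for its part in the closing of stomata and in the emergence of lateral roots. It had 664, 637 and 675 CPM at 0 µM, 451, 549 and 497 CPM at 10 µM, 490, 505 and 443 CPM at 100 µM and 324, 420 and 365 CPM at 400 µM, with the same overlap of 10 and 100 µM. The log2 fold changes were −0.40 ± 0.13, −0.46 ± 0.13 and −0.83 ± 0.13 (SE), with edgeR adjusted p of 0.0990, 0.0208 and 9.15e-05. At 100 µM the calls of PIP1B and PIP2A were both lost without replicate 1 of 0 µM (edgeR adjusted p 0.051 and 0.0654), without replicate 3 of 0 µM (0.0673 and 0.0645) and without replicate 3 of 100 µM (0.101 and 0.11).

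PIP1;5 had 194, 212 and 200 CPM at 0 µM, 129, 175 and 186 CPM at 10 µM, 163, 170 and 130 CPM at 100 µM and 102, 118 and 113 CPM at 400 µM. Every treated library lay below the untreated ones, and 400 µM passed the test, at −0.86 ± 0.15 (SE) with an edgeR adjusted p of 0.000491. At 10 and 100 µM the log2 fold changes were −0.31 ± 0.15 and −0.39 ± 0.15 (SE), with edgeR adjusted p of 0.359 and 0.119. On library totals PIP1;5 was called at 100 µM as well, at −0.50 with an edgeR adjusted p of 0.0496.

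PIP1C, RD28 and PIP1;4 were not called at any dose. PIP1C had 868, 802 and 975 CPM at 0 µM, 747, 714 and 820 CPM at 10 µM, 837, 786 and 750 CPM at 100 µM and 741, 865 and 724 CPM at 400 µM, with overlap between all doses. At 400 µM its log2 fold change was −0.18 with a 95% interval of −0.44 to 0.07, an interval that does not reach the values of the 6 genes that fell. RD28, first described as a gene of the dehydration response, had 212, 174 and 208 CPM at 0 µM, 168, 181 and 160 CPM at 10 µM, 211, 169 and 177 CPM at 100 µM and 179, 198 and 179 CPM at 400 µM. All doses overlapped with 0 µM, and the log2 fold change at 400 µM was −0.10 with a 95% interval of −0.38 to 0.18.

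PIP1;4, which passes water and, in leaf immunity, hydrogen peroxide, had 156, 154 and 147 CPM at 0 µM, 121, 147 and 132 CPM at 10 µM, 111, 144 and 134 CPM at 100 µM and 124, 118 and 126 CPM at 400 µM. The 100 and 400 µM libraries lay below the untreated ones, but the log2 fold change of −0.31 at 400 µM, with a 95% interval of −0.60 to −0.02, had an edgeR adjusted p of 0.148. On library totals it was −0.42 with an edgeR adjusted p of 0.0332.

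PIP3, a water channel whose transcript is lowered by salt, was the least abundant member at 0 µM, with 10.9, 16.1 and 21.3 CPM there, 123, 12.6 and 7.38 CPM at 10 µM, 13.2, 10.5 and 9.07 CPM at 100 µM and 10.5, 6.29 and 5.93 CPM at 400 µM. One library, RB 10 µM replicate 1, stood 5.76-fold above the next highest, and the highest 400 µM library lay just below the lowest of 0 µM. The log2 fold change at 10 µM was 1.59 ± 0.64 (SE) with an edgeR adjusted p of 0.226, and −0.59 with an adjusted p of 0.611 without that library. Without replicate 3 of 10 µM, its lowest library at that dose, PIP3 was called higher, at 2.04 with an edgeR adjusted p of 0.0428. For 100 against 10 µM it was called lower without replicate 2 (−2.61, edgeR adjusted p 0.0183) or replicate 3 (−2.57, 0.019) of 10 µM. At 400 µM it was −1.10 with an edgeR adjusted p of 0.413 in the fit of all libraries, 0.0133 in the fit of the 2 groups alone and 0.0264 without RB 10 µM replicate 1.

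Counting libraries instead of testing, 6 of 10 members had all RB 10 µM libraries below all RB 0 µM ones, against 9.7% of all genes. The count was 7 of 10 at 100 µM, against 13.4% of all genes, and 8 of 10 at 400 µM, against 17% of all genes. PIP1C and RD28 were the members that overlapped at each dose, joined by PIP3 at 10 and 100 µM and by PIP1;4 at 10 µM.

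Between the treated doses, edgeR called 6 of 10 members lower at 400 than at 10 µM, against 3.01% of all genes: PIP1A, PIP1B, PIP1;5, PIP2A, PIP2B and PIP3. PIP1A was at −1.08 ± 0.14 and PIP2B at −0.98 ± 0.14 (log2 fold change, SE), with edgeR adjusted p of 5.54e-05 and 0.000194, and both held in every fit with 1 library left out. PIP3 was at −2.69, and at −0.50 with an edgeR adjusted p of 0.553 without RB 10 µM replicate 1. The other 3 were at −0.41 to −0.55 with edgeR adjusted p of 0.0355 to 0.0469, and in a fit of only the 2 doses 2 members were called, PIP1A and PIP2B. With the replicate number as a block, PIP1B and PIP2A were at adjusted p of 0.0648 and 0.0511. Without the 3 libraries with high component scores, PIP1B was at −0.47 with an edgeR adjusted p of 0.0605 and PIP3 at −0.39 with 0.66. Leaving out 1 library, the members called were 2 without replicate 1 or 3 of 400 µM, and 3 without replicate 2 of 400 µM, replicate 2 or 3 of 10 µM or replicate 3 of 0 µM. PIP1B and PIP2A each lost the call in 8 of the 12 such fits, PIP1;5 in 6 and PIP3 in 4.

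For 400 against 100 µM, no member was called by edgeR or DESeq2, and edgeR called 0.0451% of all genes in either direction and 0.0301% lower. At an unadjusted p under 0.05, 5 of 10 were lower, against 4.4% of all genes: PIP1A, PIP1B, PIP1;5, PIP2A and PIP2B. Their log2 fold changes were −0.29, −0.38, −0.48, −0.38 and −0.57, with edgeR adjusted p of 0.261 to 0.613, and in these 5 the 400 µM libraries lay below those of 100 µM, as in 6.39% of all genes. The comparisons with 0 µM share the same untreated libraries and are not independent of each other.

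The order of levels among the 10 genes differed between doses. At 400 µM PIP1C stood first, with 777 CPM against 663 CPM for PIP1B, and their libraries did not overlap. Further down, PIP1A, RD28 and PIP2B followed PIP2A with 211, 185 and 182 CPM, and the neighbours among these 3 overlapped. At 0 µM the order by mean CPM was PIP1B, PIP1C, PIP1A, PIP2A, PIP2B, PIP1;5, RD28, PIP1;4, PIP2;4 and PIP3, with ranges that overlapped between PIP1C and PIP1A, between PIP1A and PIP2A and between PIP1;5 and RD28. Among all genes PIP1B was the 306th most abundant at 400 µM and the 128th at 0 µM, and PIP1A the 941st and the 217th. Of the summed aquaporin level, PIP1C held 29.4 ± 1.4% at 400 µM and 18.9 ± 0.5% at 0 µM, and RD28 held 7.01 ± 0.06% and 4.25 ± 0.23% (SD, n = 3). In the other direction PIP1A held 8.01 ± 0.94% at 400 µM and 16.4 ± 1.7% at 0 µM, and PIP2B 6.87 ± 0.38% and 11.7 ± 1.4% (SD, n = 3). PIP1B and PIP2A held 25.1 ± 1.5% and 14.0 ± 1.1% at 400 µM, and 25.4 ± 0.8% and 14.2 ± 0.7% at 0 µM (SD, n = 3).

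The head-to-head neighbours PIP2B and RD28, whose coding ends are printed above, differed in their change and came closer in level. Mean CPM was 546.5 for PIP2B and 198 for RD28 at 0 µM, and 181.8 and 185.1 at 400 µM. The ratio of RD28 to PIP2B CPM was 0.341, 0.391 and 0.363 at 0 µM, 0.484, 0.453 and 0.485 at 10 µM, 0.798, 0.615 and 0.654 at 100 µM and 1.05, 0.964 and 1.05 at 400 µM. No dose overlapped with another. Since the pair was picked after its values were seen, the difference between the 2 genes was not tested. A ratio within a library does not depend on the scaling of that library. An exchange of reads between the 2 genes would enter the ratio, and its size is unknown.

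**Figure D4:**
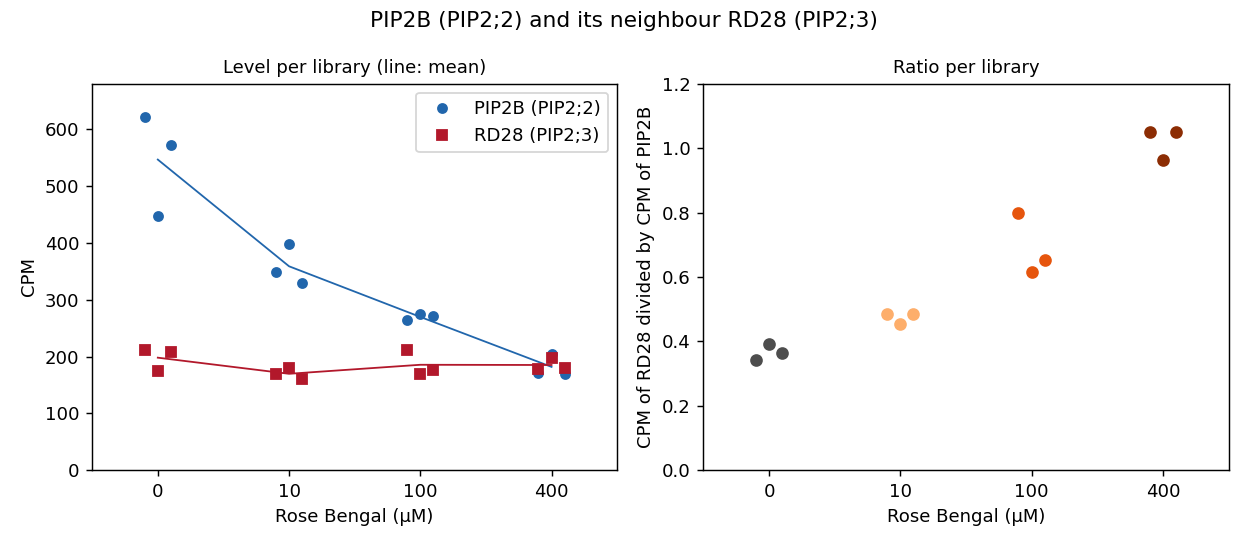
Left, CPM of PIP2B (circles) and RD28 (squares) in each library at 0, 10, 100 and 400 µM RB, with lines through the means. Right, the CPM of RD28 divided by that of PIP2B in each library, which lies between 0.964 and 1.05 at 400 µM, against 0.341 to 0.391 at 0 µM.

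The 250 bases before the annotated start are printed for the 2 genes with the lowest p in the F test and for the 2 that overlapped with 0 µM at every dose. Capitals mark any match to TTGACC or TTGACT (W box, the core bound by WRKY factors) or to TATAAA, on either strand, so that AGTCAA is a W box read from the other strand. The windows are chr3:22732993-22733242 (plus strand) for PIP1A, chr2:15615023-15615272 (minus strand) for PIP2B, chr1:227544-227793 (minus strand) for PIP1C and chr2:15617385-15617634 (plus strand) for RD28:
PIP1A: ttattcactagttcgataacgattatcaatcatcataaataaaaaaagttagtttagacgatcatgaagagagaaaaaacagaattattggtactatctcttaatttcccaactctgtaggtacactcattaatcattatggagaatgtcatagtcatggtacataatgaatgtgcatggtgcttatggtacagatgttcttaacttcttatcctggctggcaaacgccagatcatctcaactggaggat
PIP2B: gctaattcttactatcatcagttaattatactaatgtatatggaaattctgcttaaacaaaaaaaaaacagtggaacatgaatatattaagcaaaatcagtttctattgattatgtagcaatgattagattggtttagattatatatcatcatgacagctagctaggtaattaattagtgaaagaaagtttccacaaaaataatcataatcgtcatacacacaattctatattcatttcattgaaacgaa
PIP1C: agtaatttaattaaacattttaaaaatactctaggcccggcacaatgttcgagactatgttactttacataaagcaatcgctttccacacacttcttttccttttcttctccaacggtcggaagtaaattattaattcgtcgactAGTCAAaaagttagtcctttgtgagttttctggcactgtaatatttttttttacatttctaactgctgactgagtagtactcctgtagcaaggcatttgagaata
RD28: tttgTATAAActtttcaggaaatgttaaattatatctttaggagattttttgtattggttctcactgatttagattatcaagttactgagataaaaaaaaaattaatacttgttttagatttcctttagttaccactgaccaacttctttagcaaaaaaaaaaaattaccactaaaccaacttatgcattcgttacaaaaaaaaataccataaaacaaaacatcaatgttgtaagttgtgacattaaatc
The windows of PIP2B and RD28, which face each other, were 48% identical, so the close likeness of the coding sequences does not extend to them. A W box was found in 3 of the 10 members (PIP1C, PIP1;4, PIP3), against 28.4% of 12982 windows of the same length, and TATAAA in 5 of 10, against 46.8%. None of the 10 held ACGTGG or ACGTGT (17.8% of windows), CACGTG (7.61%) or GCCGCC (1.98%), and PIP3 alone held GAANNTTC, the heat shock element, with 9.31% of windows. TATAAA and its reverse overlapped in PIP1;5 and were counted as 1 gene. A match to letters is a description of the window and not a binding site.

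The 3 further PIP genes with counts were not called at any dose by edgeR or DESeq2, and none of them had an unadjusted p under 0.05. PIP2;6, a leaf channel, had 432 ± 18 CPM at 400 µM and 495 ± 70 CPM at 0 µM (SD, n = 3), a log2 fold change of −0.20 with a 95% interval of −0.46 to 0.06. PIP2;5 had 20.9 ± 1.8 CPM at 400 µM and 15.5 ± 3.5 CPM at 0 µM, and PIP2;8 had 1.5 ± 0.97 and 3.2 ± 0.9 CPM (SD, n = 3). At the low level of PIP2;8 a change was not detectable, with a 95% interval of −2.80 to 0.58 around its log2 fold change of −1.11.

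Tonoplast intrinsic proteins (TIPs), the water channels of the vacuole, were lower as well. Of 7 TIP genes tested, edgeR called 3, 4 and 5 lower at 10, 100 and 400 µM, against 1.07%, 4.22% and 6.43% of all genes. None was called higher by edgeR or DESeq2, and none was higher at an unadjusted p under 0.05. TIP2;2 had 55.2 ± 9.9 CPM at 400 µM and 197 ± 34 CPM at 0 µM (SD, n = 3), a log2 fold change of −1.84 ± 0.17 (SE) with an edgeR adjusted p of 1.45e-07. TIP1;1, an abundant channel of vegetative vacuoles, had 906 ± 19 and 1686 ± 34 CPM, at −0.90 ± 0.11 (SE) with an edgeR adjusted p of 8.84e-06.

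Of 6 NIP and SIP genes tested, NIP5;1, the boric acid channel of roots, was lower at 100 and 400 µM, with 104 ± 13 CPM at 400 µM and 195 ± 18 CPM at 0 µM (SD, n = 3). NIP2;1, known for its induction in roots short of oxygen, had 206 ± 6 CPM at 400 µM and 104 ± 49 CPM at 0 µM (SD, n = 3), with an edgeR adjusted p of 0.0818. The other members of this list were not called at any dose.

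Among 10 tested genes for the traffic, phosphorylation and degradation of aquaporins, 2 were called higher at 400 µM and none was called lower there. Of all genes, 9.11% were called higher and 6.43% lower at that dose. SYP121, a syntaxin that delivers PIP channels to the plasma membrane, had 610, 599 and 615 CPM at 400 µM and 193, 219 and 211 CPM at 0 µM. It was higher at every dose, with log2 fold changes of 0.69 ± 0.12, 1.53 ± 0.12 and 1.55 ± 0.12 (SE) at 10, 100 and 400 µM and an edgeR adjusted p of 1.70e-08 at 400 µM. CPK7, a calcium-dependent kinase whose loss raises the amount of PIP2A protein, had 21.4 ± 2.9 CPM at 400 µM and 11.2 ± 2.8 CPM at 0 µM (SD, n = 3), at 0.93 ± 0.26 (SE) with an edgeR adjusted p of 0.0174. RMA1, related to a ubiquitin ligase that retains aquaporins in the endoplasmic reticulum, was lower at 100 µM, at −0.56 ± 0.16 (SE) with an edgeR adjusted p of 0.0215, and was not called at 10 or 400 µM.

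Proton pumps (AHA) energize the plasma membrane. Of 7 tested, edgeR called 3 lower at 400 µM (AHA1, AHA2, AHA7) and 2 at 100 µM, against 6.43% and 4.22% of all genes. None was called higher, against 9.11% of all genes at 400 µM. At an unadjusted p under 0.05, 1 pump (AHA8) was higher at each dose, and 1, 4 and 4 were lower at 10, 100 and 400 µM. AHA8 was scarce, with 3.4 ± 1.3 CPM at 400 µM and 1.1 ± 1.2 CPM at 0 µM (SD, n = 3). Its log2 fold change at 400 µM was 1.54 ± 0.71 (SE), with an edgeR adjusted p of 0.173. AHA1 had 418 ± 19 CPM at 400 µM and 658 ± 70 CPM at 0 µM, and AHA2 had 80 ± 27 and 188 ± 63 CPM (SD, n = 3). Their log2 fold changes were −0.65 ± 0.14 and −1.22 ± 0.25 (SE), with edgeR adjusted p of 0.00272 and 0.00158.

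**Figure D5:**
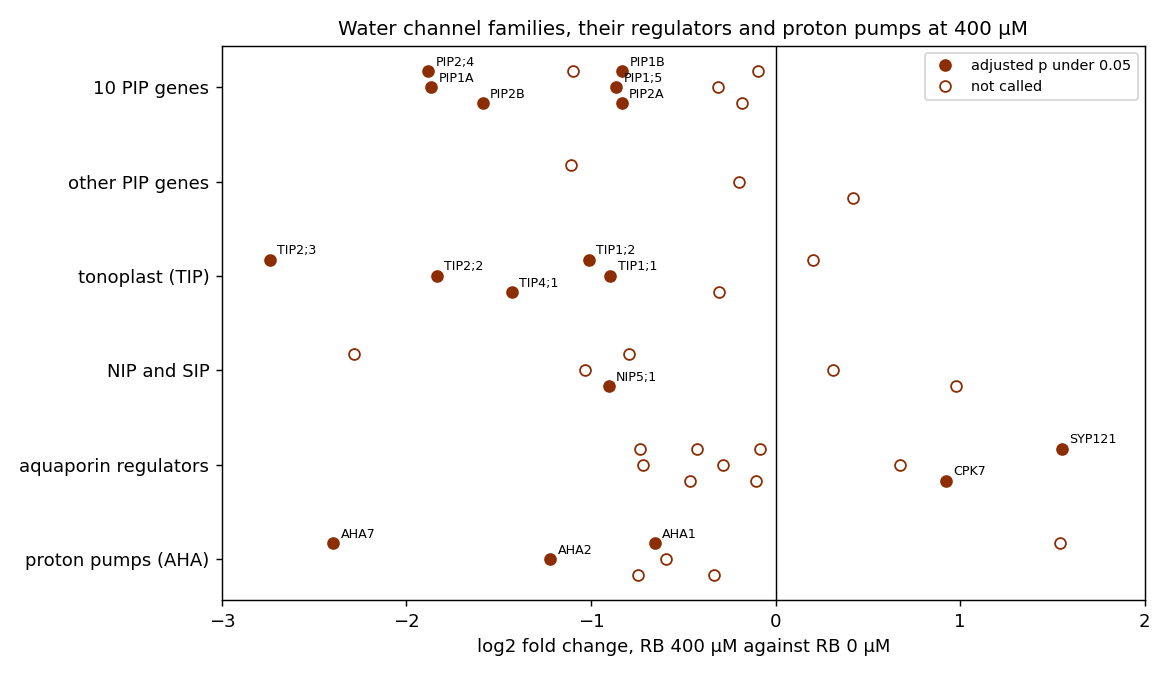
Log2 fold change at 400 µM against 0 µM RB of every tested gene of 6 lists, 1 list per row and 1 point per gene, filled and named where the adjusted p was under 0.05. The called PIP, TIP, NIP and proton pump genes lie left of 0, and SYP121 (1.55) and CPK7 (0.93) lie right of it.

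Markers of the organs in a seedling moved as well. The summed level of 12 root markers was 424 to 484 CPM at 0 µM, 204 to 267 CPM at 10 µM, 175 to 210 CPM at 100 µM and 126 to 177 CPM at 400 µM. At 400 µM 7 of 12 were called lower, against 6.43% of all genes. EXPA7, EXPA18 and COBL9, which mark root hair cells, were near or at 0 at 400 µM, with 0.17, 0.14 and 0 CPM against 16.9, 22.6 and 3.55 CPM at 0 µM. PIN2, SHR and SCR, which mark the root tip and the inner root layers, were not called, at log2 fold changes of −0.26, −0.13 and −0.55. Besides the root hair genes, CASP1 and PHO1 were among those called lower at 400 µM, at −0.64 and −1.36 (edgeR adjusted p 0.0319 and 0.00058). CASP2 and NRT2.1 were not called, at −0.63 and −1.16 (edgeR adjusted p 0.262 and 0.125). Of the 12 root markers, 2 or 3 had no read in each 400 µM library, and none was at 0 in a 0 µM library. For 9 green shoot markers the sum was 24730 to 31970 CPM at 400 µM and 30910 to 32030 CPM at 0 µM. Of these, 2 were called lower and 1 higher at 400 µM, against 6.43% and 9.11% of all genes. The mean sum of root markers was 32.8% of the untreated one at 400 µM, against 56.8% for the 10 aquaporins and 91.2% for green shoot markers. PHT1;1, a phosphate transporter, made up 34.8% of the root marker sum at 400 µM and 52.6% at 0 µM, and without it the other 11 root markers stood at 45.1% of their untreated sum. RBCS1A made up 53.5% of the green sum at 400 µM and 56.5% at 0 µM, and the other 8 stood at 97.5%. The part of root content in the aquaporin values was not tested.

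The genes whose profile over the 12 libraries came closest to the median profile of the members, among 6894 genes at or above 10 CPM on average, were STR18, TIP1;1, CYP89A9, AT1G14890 and NIT1. Likeness was the root mean square difference of log2(CPM + 1), centred on each gene's mean, and it was 0.10, 0.13, 0.13, 0.13 and 0.13 for these 5. Members themselves lay at 0.07 (PIP2A) to 1.02 (PIP3), so that STR18 was nearer to the median profile than 8 of the 10 members. NIT1 is a nitrilase, and CYP89A9 takes part in chlorophyll breakdown. At 400 µM all 5 were lower than at 0 µM, by log2 fold changes of −0.59 to −1.04, a direction that the choice by likeness fixes.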

How the data were processed

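The authors made MARS-seq libraries (75 cycles), trimmed the reads (cutadapt), mapped them (STAR, Araport 11) and counted them by gene (HTSeq-count). Versions in the submitters' processing notes are 2.17.1.14 for bcl2fastq and 1.8.3 for cutadapt. Here the deposited raw counts were used. The deposited counts are labelled as made without a filter on molecular identifiers (UMI), so they may hold PCR duplicates. The deposited normalized signal (counts divided by size factors) and the deposited regularized log2 values, both from DESeq2, were not used.

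Counts of 13307 genes in 12 libraries were fitted in R 4.3.3 with edgeR 4.0.16 (glmQLFit, glmQLFTest, TMM factors, all 4 doses in 1 fit, two-sided tests, Benjamini-Hochberg over all genes). The minimum of 5 reads in 1 sample removed none. The SE was taken as |log2 fold change| over the root of the F statistic. Intervals are 95%. DESeq2 1.42.0 was an alternative, and others were size factors, library totals, filters, the groups compared alone, a replicate block, a minimum fold of 2 and leaving out 1 or 3 libraries. The tests were tried on simulated counts. Named genes were all members, all other PIP genes, the 2 of each further list with the smallest F test p and the 5 most alike. RMA1, AHA7, AHA8 and the markers named singly were added after their values were seen. The members and lists were chosen with earlier results of these data known. Names and sequences came from TAIR10.1 of RefSeq, where 99.3% of identifiers matched.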

Additional observations from a re-analysis of the deposited data

How the results depend on the processing

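The members called lower at 400 against 0 µM stayed at 6 or 7 in every fit except the one with a minimum fold of 2. Leaving out each library in turn, the members called were 2 to 4 (10 against 0 µM, where the 4, without replicate 3 of 10 µM, include PIP3 as higher), 3 to 5 (100 against 0 µM), 6 to 7 (400 against 0 µM), 1 to 2 (100 against 10 µM), 0 to 0 (400 against 100 µM), 2 to 6 (400 against 10 µM) and 6 to 7 (F test), and all genes called were 313 to 638, 1119 to 2027, 1573 to 2253, 226 to 1530, 0 to 116, 598 to 1377 and 1451 to 2773 in that order. The summed level relative to 0 µM was 0.718 to 0.78 at 10 µM, 0.651 to 0.704 at 100 µM and 0.545 to 0.592 at 400 µM in those fits, and on library totals 0.775, 0.628 and 0.526, against 0.748, 0.678 and 0.568 with TMM. A minimum fold of 2 left 1, 3 and 3 members at 10, 100 and 400 against 0 µM, 0 at 100 against 10 µM and 2 at 400 against 10 µM, with 316, 901, 1244, 287 and 560 genes in all, which its construction brings. For 100 against 10 µM, library totals and DESeq2 each called 2 members, the fit of only the groups compared called 131 genes and the fit without 3 libraries (replicate 1 of 10 µM, replicate 1 of 100 µM and replicate 2 of 400 µM) 1188. That last fit called 2359 genes at 100 against 0 µM and 126 at 400 against 100 µM, where DESeq2 called 29. For 400 against 10 µM the groups alone gave 2 members. PIP3 (PIP2;7) turned in sign at 10 against 0 µM, where its log2 fold change of 1.59 was −0.60 without the 3 libraries and −0.59 to 2.05 with 1 library left out, and at 100 against 10 µM, where it was −2.61 to 0.063 with 1 left out. The opposite sign came in both from the fit without replicate 1 of 10 µM, which holds most of its reads at that dose. Among the member results the report gives, no other changed sign.

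Replicate numbers do not pair the samples by the labels, and 4 of 18 same-numbered pairs of libraries correlated above 0.1, with 4 of 12 libraries closest to their own number. The replicate block called 10 genes at 400 against 100 µM and ended the calls of PIP1B and PIP2A at 400 against 10 µM. It changed no other member call. Depth limits PIP2;4, PIP3 and PIP2;8, whose counts are low.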

Other observations

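The high PIP3 (PIP2;7) count of RB 10 µM replicate 1, 348 reads, was not alone in that library. Counting genes with at least 50 CPM in 1 library and at least 5 times the level of the next highest library, RB 10 µM replicate 1 had 16, RB 400 µM replicate 3 had 1 and the other 10 libraries had 0. PIP3 was the only one of the 10 aquaporin genes among them, and the remaining 9 members had their highest library at 0 µM, at most 1.25-fold above the next. This count was made after the values of PIP3 were seen.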
